A study of Mus musculus with 32 samples.

Results

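The response to the auxin indole-3-acetic acid (IAA) was followed in mouse embryonic stem cells that overexpressed a mutated form of CTCF. The comparison rests on 4 of the 32 libraries of the series: those titled mutated CTCF with IAA, replicates 1 and 2, against those titled mutated CTCF without IAA, replicates 1 and 2. All 14970 genes of the deposited table were considered, and the 13938 with a mean normalised count of at least 10 over its 12 libraries were tested. At that limit, Rhd was just inside with a mean of 10.001 (11.0, 15.4, 10.8 and 24.0 in the 4 mutated-CTCF libraries) and Gm38056 just outside with 9.989 (6.66, 7.61, 13.8 and 16.3).

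All 12 libraries came from E14 mouse embryonic stem cells carrying CTCF AID, an auxin-inducible degron on CTCF through which IAA triggers destruction of the tagged protein. The 6 groups of 2 libraries were cells with an overexpression control, with wild-type CTCF or with mutated CTCF, each without IAA and with IAA. IAA was given at 500 µM, for 12 h where the labels give a time, and the growth protocol is a serum-free medium with LIF, the MEK inhibitor PD0325901 and the GSK3 inhibitor CHIR99021. The labels do not say which residues of CTCF were mutated, which promoter drove it, whether a line was 1 clone, or whether replicates were separate cultures, so p-values measure only the spread between these libraries. For 4 libraries, title and treatment label disagree: the libraries titled mutated CTCF without IAA carry the 12 h IAA label, and those titled wild-type CTCF with IAA are labelled untreated. Groups follow the titles here, because by the treatment label all 4 mutated-CTCF libraries would be treated and no comparison would be left.

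CTCF is a zinc-finger protein that binds a long DNA motif and halts cohesin as it extrudes chromatin loops, so that many loop and domain borders lie at CTCF sites. It also binds close to the start sites of some genes, where it can keep them active. In embryonic stem cells, adding back a form of CTCF while the tagged protein is destroyed is a usual way to ask which responses that form can prevent. IAA is also an indole, and indoles can activate the aryl hydrocarbon receptor. No IAA-treated cells without a degron are among the libraries used here, so responses to the chemical and to loss of tagged CTCF cannot be told apart within the mutated-CTCF comparison.

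Totals of the normalised counts lay between 19073890 and 19546135 in the 12 libraries, and replicate libraries correlated across genes with r from 0.985 to 0.989 on the log2 scale. Ctcf itself (chr8 on GRCm38, exons overlapped on the opposite strand by Agrp and Gm5914) was at 9589 and 9712 without IAA and 11758 and 11590.3 with it in mutated-CTCF cells. It was at 4134 and 4332 in untreated control cells and 9275 and 9481 in untreated wild-type-CTCF cells. Both overexpressing lines were thus above the control, and added and endogenous transcripts cannot be separated in these values. Ctcf rose with IAA by 0.27 ± 0.03 (SE) on the log2 scale (adjusted p = 0.000292), and by 0.28 and 0.28 in the control and wild-type-CTCF cells. The degron acts on protein, which was not measured. Of the stem cell markers, all 12 core and all 20 naive pluripotency genes reached the mean of 10, as did 13938 of the 14970 genes in all. Pou5f1 and Nanog lay between 13906 and 16527 in the 4 libraries.

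IAA changed 2262 of the 13938 genes in mutated-CTCF cells at an adjusted p under 0.05 (limma, Benjamini-Hochberg), which is 16.2% of those tested. Of these, 1158 rose (8.31% of genes tested) and 1104 fell (7.92%), and the median log2 difference over all genes was -0.0038. Most changes were small: the median size of a called change was 0.364 on the log2 scale, and 253 genes (1.82%) changed at least 2-fold, 126 up and 127 down. With 1 of the 4 libraries left out, the count called was 1434 and 1344 without untreated replicates 1 and 2, and 1456 and 1202 without treated replicates 1 and 2. Differences are given throughout as IAA minus without, in log2 units after adding 1 to each value, which understates the change of genes of low value. The plot of mean against difference shows that the largest changes lay among genes of low and middle level.

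**Figure D1:**
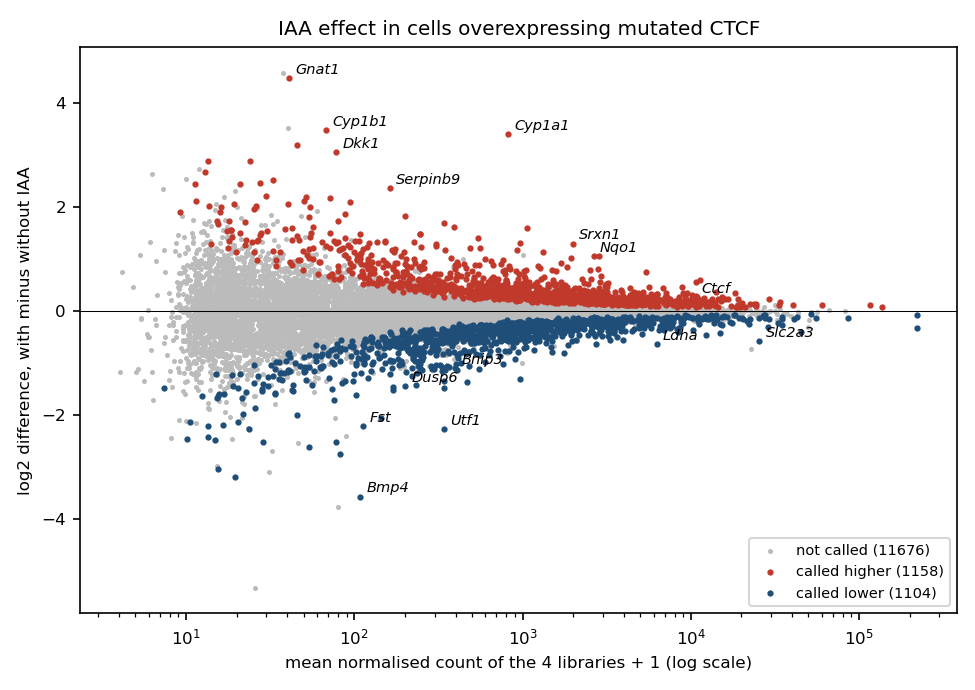
Each point is 1 of 13938 genes; the x axis is its mean normalised count over the 4 mutated-CTCF libraries plus 1 (log scale) and the y axis its log2 difference with minus without IAA. The 1158 genes called higher (red) and 1104 called lower (blue) are spread over the range of levels, with Cyp1a1 at 3.40 and Bmp4 at -3.57.

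Cyp1a1, a cytochrome P450 induced by the aryl hydrocarbon receptor, showed the clearest of the large rises (ENSMUSG00000032315.6, GRCm38 chr9:57687928-57703824, plus strand). It was at 142 and 138 without IAA and 1553 and 1429 with it, 10.6-fold higher (log2 difference 3.40 ± 0.10 SE, adjusted p = 2.41e-08). Its relative Cyp1b1 went from 14.5 and 7.00 to 122 and 124 (log2 difference 3.48 ± 0.34 SE, adjusted p = 9.62e-05). In both genes the replicates of each group lay far closer to each other than to the other group.

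Gnat1, the transducin alpha subunit of rod photoreceptors, was at 5.83 and 0.70 without IAA and at 66.4 and 86.1 with it (log2 difference 4.49 ± 0.84 SE, adjusted p = 0.00454) (ENSMUSG00000034837.12, GRCm38 chr9:107674474-107679712, minus strand). The untreated values are close to 0, so the size of this rise is poorly fixed. Dkk1, a secreted inhibitor of Wnt signalling, was at 16.2 and 15.2 and rose to 127 and 150.4 (log2 difference 3.06 ± 0.23 SE, adjusted p = 2.09e-05) (ENSMUSG00000024868.8, GRCm38 chr19:30545863-30549665, minus strand). Serpinb9, an inhibitor of granzyme B, went from 53.3 and 51.1 to 272 and 272 (log2 difference 2.36 ± 0.13 SE, adjusted p = 1.96e-06). For both genes the libraries with IAA lay far above those without, and the replicates of Serpinb9 nearly coincided. Pdgfra, a platelet-derived growth factor receptor and also a marker of primitive endoderm, was at 35.2 and 33.4 and rose to 130.2 and 172 (log2 difference 2.09 ± 0.37 SE, adjusted p = 0.00335). In wild-type-CTCF cells Pdgfra was at 36.0 and 30.9 without and 50.4 and 32.9 with IAA, but the difference between the 2 effects did not pass (adjusted p = 0.178).

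The other genes among the 12 largest rises were Adgra2, an adhesion receptor (log2 difference 3.20), Il1r1, the interleukin-1 receptor (2.51), Atg16l2, a relative of an autophagy factor (2.20). They further included Ecm1, an extracellular matrix protein (2.17), Zfp469 (2.13; GENCODE M21 types the identifier measured as a long noncoding RNA), and Rhof (2.06). Il1r1 and Atg16l2 were each called in the full set but not when either of 2 of the 4 libraries was left out. For Il1r1 the adjusted p was then 0.129 and 0.172 and the log2 difference between 1.35 and 3.67, and for Atg16l2 the adjusted p was 0.131 and 0.136 and the difference between 1.45 and 2.95. Exons of Adgra2, Atg16l2, Pdgfra and Rhof are overlapped by exons of a gene on the opposite strand (Brf2, Fchsd2, Gm42802 and Tmem120b among them). Strand use in counting is not given in the sources used here.

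**Figure D2:**
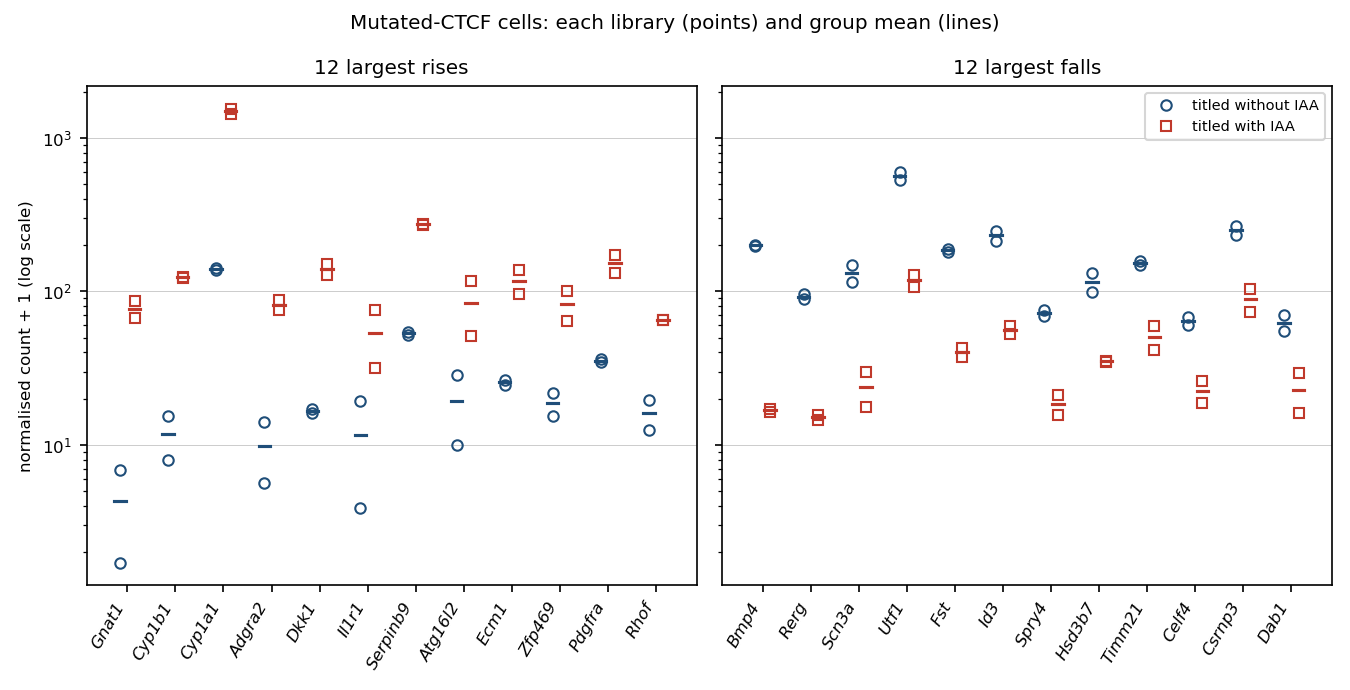
Normalised counts plus 1 (log scale) of the 12 largest rises and the 12 largest falls in the 4 mutated-CTCF libraries. Points are libraries and lines the mean of 2. By the rule for naming them, libraries with IAA (red squares) and without (blue circles) do not overlap for any of the 24 genes, as for 58.8% of all genes tested; Gnat1, Il1r1 and Atg16l2 show the widest spread between replicates.

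The falls included genes of BMP, activin and ERK signalling. Bmp4, a secreted ligand that supports self-renewal, fell the furthest of the genes that met the rule for naming (ENSMUSG00000021835.15, GRCm38 chr14:46383520-46390669, minus strand). It was at 199.7 and 197 without IAA and at 16.2 and 15.3 with it (log2 difference -3.57 ± 0.67 SE, adjusted p = 0.00447). In the other lines Bmp4 varied between replicates: it was at 50.7 and 181 without and 92.5 and 17.7 with IAA in control cells and at 47.8 and 59.1 and 27.7 and 23.1 in wild-type-CTCF cells. The fall was not called in either, and the differences between the effects were not called (adjusted p = 0.331 against control and 0.297 against wild type).

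Id3, a transcriptional regulator induced by BMP, went from 248 and 213 to 51.5 and 58.3 (log2 difference -2.05 ± 0.19 SE, adjusted p = 8.39e-05). Fst, follistatin, which binds and blocks activin, was at 189 and 179.9 and fell to 36.5 and 41.5 (log2 difference -2.22 ± 0.16 SE, adjusted p = 1.44e-05). Spry4, a feedback inhibitor of receptor tyrosine kinase signalling, was at 68.5 and 75.0 and fell to 14.6 and 20.1 (adjusted p = 0.0049). The 2 groups of each do not overlap, which the rule for naming required. Utf1, a chromatin-bound factor of pluripotent cells, was the most abundant of the 12 falls, from 598 and 532 to 106 and 127 (log2 difference -2.27 ± 0.13 SE, adjusted p = 3.6e-06) (ENSMUSG00000047751.9, GRCm38 chr7:139943789-139945112, plus strand). Utf1 also fell in control cells (-2.66) and wild-type-CTCF cells (-1.55).

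The remaining falls were Rerg, a Ras-related growth inhibitor (log2 difference -2.62), Scn3a, a sodium channel (-2.51), Hsd3b7, an enzyme of bile acid synthesis (-1.71). Next came Timm21, a mitochondrial import factor (-1.62), Celf4, an RNA-binding protein (-1.54), Csrnp3, a nuclear protein (-1.52), and Dab1, the adaptor of reelin signalling (-1.51). The calls of Scn3a, Celf4 and Dab1 were lost without 1 library: the adjusted p reached 0.0823 for Scn3a and 0.0667 for Celf4 (either of 2 libraries) and 0.194 for Dab1 (each of 3). Exons of Bmp4, Fst, Hsd3b7 and Csrnp3 are overlapped on the opposite strand by other annotated genes.

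Among abundant genes with a change of at least 2-fold, the 6 of highest mean all rose, and 3 of them encode enzymes of redox defence. Srxn1, sulfiredoxin, was at 1135 and 1166 and rose to 2830.2 and 2835 (log2 difference 1.30 ± 0.05 SE, adjusted p = 8.06e-08) (ENSMUSG00000032802.8, GRCm38 chr2:152105516-152111376, plus strand). Nqo1, a quinone reductase, went from 1766 and 1661 to 3527 and 3614 (1.06 ± 0.04 SE), and Prdx6, a peroxiredoxin, from 1826 and 1867 to 4004 and 3667 (1.05 ± 0.05). The other 3 were Calcoco2, an autophagy receptor (1.60 ± 0.07), Atn1, a nuclear corepressor (1.14 ± 0.14), and Eif4g3, a translation initiation factor (1.02 ± 0.06). All 6 also rose in control and wild-type-CTCF cells.

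Counts for the gene lists that follow are to be read against the 16.2% of all genes called in mutated-CTCF cells (8.31% higher and 7.92% lower). For counts in control cells the shares over all genes were 12.8% higher and 12.5% lower, and in wild-type-CTCF cells 11.1% and 10.3%. Genes of the NRF2 programme, which is switched on by oxidative and electrophilic stress, rose together. Of 22 tested, 15 rose and 0 fell (68.2% called), and their median log2 difference was 0.27 against -0.0038 over all genes. Besides Srxn1 and Nqo1, these were led by Gpx2, a glutathione peroxidase (from 1308 and 1326 to 2509 and 2232), and Gclm, a subunit of the enzyme that limits glutathione synthesis (from 2006 and 2071 to 3277 and 3856). Txnrd1, thioredoxin reductase, rose by a smaller step with little spread, from 8678 and 8608 to 12836 and 12517 (log2 difference 0.55 ± 0.02 SE, adjusted p = 4.08e-07). The same list gave 13 higher and 0 lower in control cells and 14 higher and 1 lower in wild-type-CTCF cells, with medians of 0.21 and 0.26. No member differed between the mutated-CTCF effect and either of the other effects.

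Of 15 genes tested for the aryl hydrocarbon receptor and its targets, 6 rose and 2 fell (53.3% called against 16.2% over all genes, median 0.11). Beside Cyp1a1, Cyp1b1 and Nqo1, Cyp1a2 was at 8.00 and 10.9 and rose to 39.5 and 56.6 (log2 difference 2.22 ± 0.63 SE, adjusted p = 0.0361), a call lost whichever 1 of the 4 libraries was left out (adjusted p between 0.0884 and 0.184). The receptor itself, Ahr, fell from 373 and 343 to 241 and 248 (log2 difference -0.55; adjusted p = 0.05 without untreated replicate 1), and so did Tiparp, a target that represses it, from 1417 and 1269 to 978 and 919.7 (-0.50). Ahrr, the receptor's repressor, was at 129 and 9.44 without and 40.7 and 49.8 with IAA and showed no usable difference at that spread. Cyp1a1 rose in the other lines too, from 109 and 105 to 883 and 833 in control and from 107 and 94.8 to 833 and 946 in wild-type-CTCF cells, and the effects did not differ at the threshold (mutated minus control 0.41 ± 0.14, adjusted p = 0.251).

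Stress genes of the integrated stress response, which is driven by ATF4, were more often higher than lower. Of 29 tested, 9 rose and 1 fell (34.5% called against 16.2% over all genes, median 0.14). Trib3, a pseudokinase induced by ATF4, went from 504 and 518 to 741 and 759.6, and the transcription factor Atf5 from 549 and 555 to 827 and 854. Nupr1, a stress-induced nuclear protein, rose from 409.6 and 411 to 664 and 679, by more than in control cells (mutated minus control 0.45 ± 0.09, adjusted p = 0.0293). Of 17 heat shock and folding genes 8 rose and 1 fell (52.9% called), but with a median of only 0.07. The inducible Hspa1b was at 116 and 105 and rose to 182 and 161 (log2 difference 0.62 ± 0.14 SE, adjusted p = 0.0142), a call lost without either of 2 libraries (adjusted p 0.0883 and 0.0972). Hspa1a and Hspa1b are near-identical copies whose reads the authors' counting could divide between them.

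Of 25 germline genes tested, many of which are silenced by DNA methylation in somatic cells, 8 rose and 1 fell (median 0.37). That is 36% called against 16.2% over all genes, and the others did not pass. Stra8, a gene of meiotic entry, was at 161 and 157 and rose to 452 and 588 (log2 difference 1.69 ± 0.14 SE, adjusted p = 3.35e-05). Dazl, an RNA-binding protein of germ cells, went from 2002 and 2059 to 3039 and 3152 (log2 difference 0.61 ± 0.06 SE, adjusted p = 6.22e-05), and the helicase Ddx4 from 107 and 101 to 196 and 182. Taf7l, a germ cell subunit of the general transcription machinery, rose from 42.6 and 35.3 to 92.1 and 96.5 in mutated-CTCF cells, while it was at 82.5 and 98.4 and 75.3 and 91.9 in control cells without and with IAA. Its effect differed from that in control cells (difference of effects 1.37 ± 0.27 SE, adjusted p = 0.0304), and its 2 untreated mutated-CTCF libraries were the lowest of the 12. Stra8, Dazl and Ddx4 rose in all 3 lines.

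Naive pluripotency genes moved in both directions, with 6 higher and 5 lower of 20 (55% called against 16.2% over all genes). Their median was 0.09, or 0.04 to 0.08 with 1 of the 4 libraries left out. Of 12 core pluripotency genes 2 rose and 6 fell (66.7% called, median -0.06). Dppa3, a maternal factor that guards against DNA methylation, rose from 393 and 402 to 826 and 765 (log2 difference 1.00 ± 0.10 SE, adjusted p = 0.000104). Klf5 fell from 4296 and 4294 to 3029 and 3026, and the nuclear receptor Nr0b1 from 1309 and 1247 to 884 and 855. Sox2, a core factor, fell from 7636 and 7965 to 5967 and 6075 (log2 difference -0.37 ± 0.03 SE, adjusted p = 6.98e-05). The changes of Nanog (0.08) and Pou5f1 (-0.09) passed the threshold but were small, and with 1 library left out the call was lost in 3 of 4 and 4 of 4 cases, with an adjusted p of up to 0.209 and 0.23. Of 10 formative and primed genes tested 0 rose and 4 fell (40% called, median -0.34), among them Foxd3, a forkhead factor, from 276 and 239.8 to 122 and 132.

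Of 26 genes tested of the FGF and ERK response, 3 rose and 8 fell (42.3% called against 16.2% over all genes). Their median was 0.05, or -0.08 to 0.07 with 1 of the 4 libraries left out, and negative without the untreated replicate 2. The called genes included feedback inhibitors of the pathway in both directions: Spry4 and Dusp6 fell, and Il17rd rose (0.30 ± 0.06 SE). Dusp6, a phosphatase of ERK, was at 269.9 and 318 and fell to 98.1 and 116 (log2 difference -1.45 ± 0.22 SE, adjusted p = 0.00123). Fgfr2 rose from 81.7 and 87.1 to 205 and 230.3 (log2 difference 1.35 ± 0.18 SE, adjusted p = 0.000592), and Fgfr1 by 0.78. Of 33 BMP and Nodal genes 4 rose and 7 fell (33.3% called), the falls being led by Bmp4, Fst and Id3. The list median was 0.01, or -0.05 to 0.04 with 1 library left out, and negative without replicate 2 of either group. Of 35 Wnt pathway genes 6 rose and 9 fell (42.9% called). Here the list median was -0.08, or -0.09 to 0.02 with 1 library left out, and positive without the treated replicate 2. Beside Dkk1, the secreted Sfrp2 rose from 273 and 284 to 532 and 502, and T, a T-box target of the pathway, fell from 64.5 and 61.9 to 29.4 and 30.5 (log2 difference -1.05 ± 0.19 SE, adjusted p = 0.00354). The medium of every group holds inhibitors of MEK and GSK3, which act on ERK and Wnt signalling. Activity of the pathways was not measured.

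Sterol synthesis genes fell as a group: 14 of 20 tested fell and 0 rose (70% called against 16.2% over all genes), with a median of -0.28. Mvd, a decarboxylase of the mevalonate pathway, went from 981 and 1011 to 724 and 676 (log2 difference -0.51 ± 0.07 SE, adjusted p = 0.000687), and Dhcr7, the last enzyme of cholesterol synthesis, from 2147 and 2338 to 1662 and 1587 (log2 difference -0.46 ± 0.06 SE, adjusted p = 0.000363). The list gave 0 higher and 13 lower in control cells and 0 higher and 17 lower in wild-type-CTCF cells, with medians of -0.25 and -0.39.

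**Figure D3:**
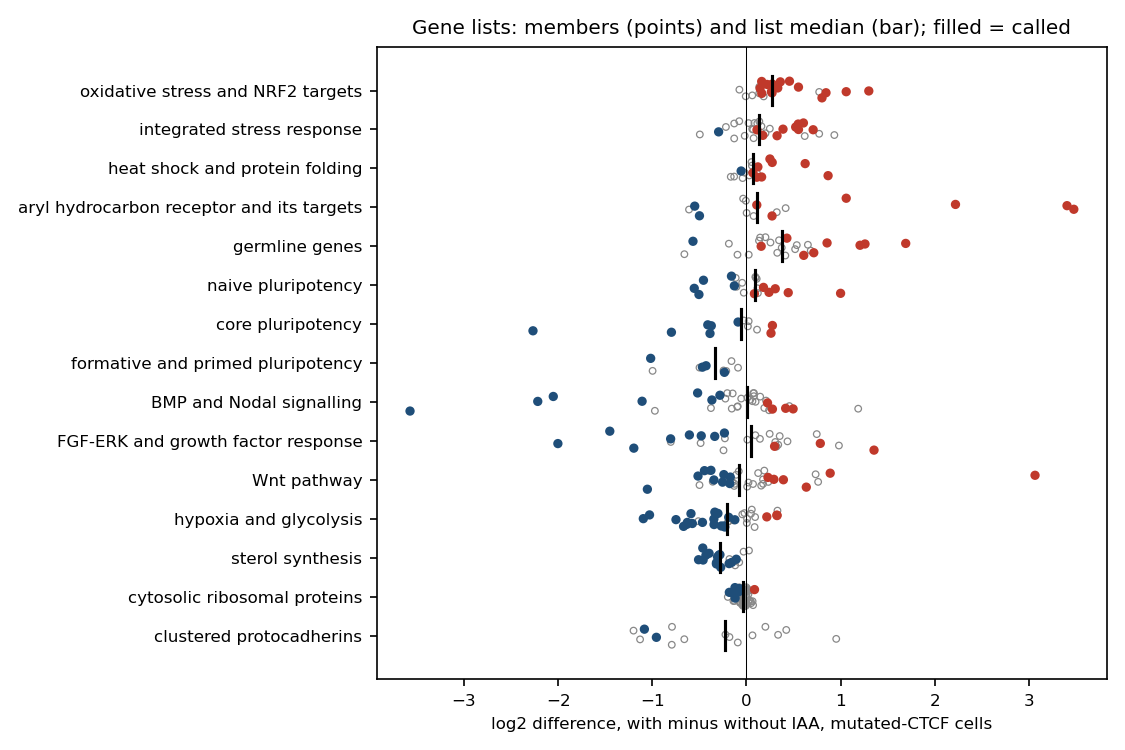
Log2 difference with minus without IAA in mutated-CTCF cells for the tested members of 15 gene lists; filled points passed an adjusted p under 0.05 (red higher, blue lower), open points did not, and bars are list medians. The NRF2 list lies to the right of 0 (median 0.27) and the sterol synthesis and hypoxia and glycolysis lists to the left (-0.28 and -0.21).

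Glycolysis and hypoxia genes fell as well: 18 of 34 tested fell and 3 rose (61.8% called against 16.2% over all genes), with a median of -0.21. Slc2a3 and Slc2a1 encode glucose transporters. Slc2a3 was at 30491 and 30495 and fell to 20489.6 and 20467 (log2 difference -0.57 ± 0.02 SE, adjusted p = 2.41e-08), and Slc2a1 was at 3301 and 3373 and fell to 2165 and 2154 (log2 difference -0.63 ± 0.05 SE, adjusted p = 1.86e-05). Ldha, lactate dehydrogenase, went from 7618 and 7604 to 4978 and 4835 (log2 difference -0.63 ± 0.03 SE, adjusted p = 4.68e-07) (ENSMUSG00000063229.15, GRCm38 chr7:46841475-46855627, plus strand). Pfkl, a phosphofructokinase, went from 1446 and 1469.8 to 891 and 845 (-0.75 ± 0.06 SE), and Pdk1, the kinase that shuts pyruvate out of the mitochondrion, from 1096 and 953 to 491 and 509.8 (-1.03 ± 0.14). Bnip3, a mitophagy receptor induced by hypoxia, was at 507 and 577 and fell to 261 and 245 (log2 difference -1.10 ± 0.11 SE, adjusted p = 0.000133) (ENSMUSG00000078566.8, GRCm38 chr7:138890836-138909519, minus strand). In each of these, picked among the genes called lower, the replicates were close and the groups did not overlap, as for 58.8% of all genes tested. Hif1a, the factor that drives the programme, was at 3795 and 3717 without and 3899 and 4111 with IAA. Its groups did not overlap either, and its change did not pass (adjusted p = 0.145).

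The effect of IAA in mutated-CTCF cells was next set against that in control cells, which carry no added CTCF and were called for 3530 genes (25.3%). The 2 effects share no library. Of the 2262 genes called in mutated-CTCF cells, 1581 were also called with the same sign in control cells (69.9% of the former, 44.8% of the latter), and 22 with the opposite sign. Across the 13938 genes the 2 effects correlated with Pearson r = 0.52 and Spearman rho = 0.573, a description over genes that share a table and its scaling. Genes called in all 3 lines with the same sign numbered 1193, of which 629 rose and 564 fell. Of the genes called in mutated-CTCF cells, 257 had an unadjusted p of at least 0.05 in both other lines, but the difference of effects was called for only 10 of these against control and 4 against wild type.

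The difference of the effects, on the log2 scale and as mutated minus control, was called for 228 genes (1.64%): 147 positive (1.05%) and 81 negative (0.581%), 73 of them at least 2-fold (0.524%). The count was 151 without the untreated and 148 without the treated mutated-CTCF replicate 2, and 119 (90 positive and 29 negative) when the spread was fitted without its trend over the mean. In 216 of the 228 it ran against the sign of the control effect. The control effect itself was called for 205 of the 228 and the mutated-CTCF effect for 116, and 66 genes were called in both with the same sign and a smaller size in mutated-CTCF cells. These counts include the control effect in the difference, so the sign of the 2 is not independent.

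**Figure D4:**
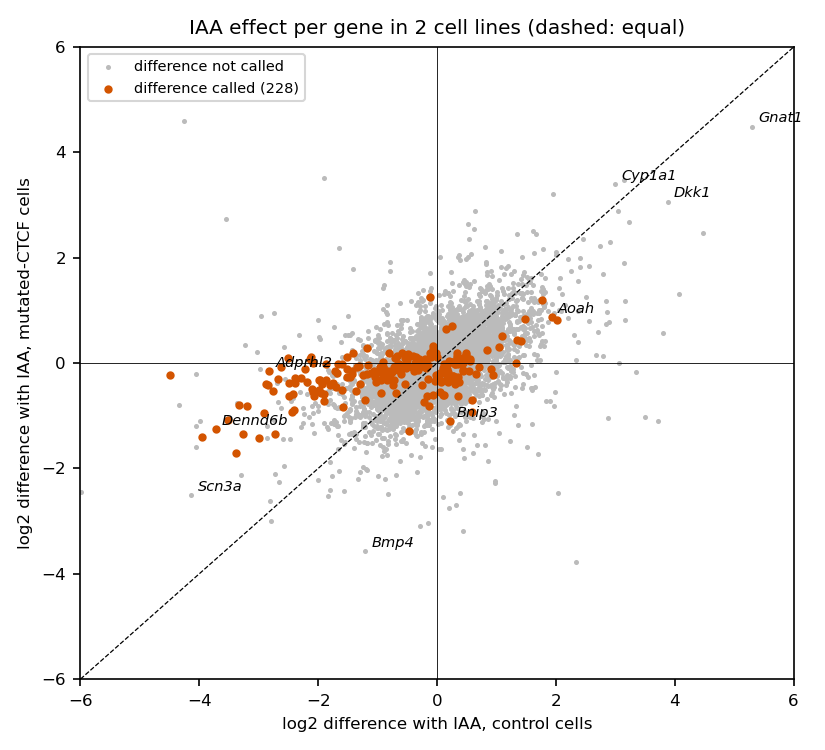
Log2 difference with IAA per gene in control cells (x axis) and in mutated-CTCF cells (y axis), with the dashed line where both are equal; 1 gene lies outside the plotted range. Orange points are the 228 genes whose effects differed; most of them lie left of 0 on the x axis and near 0 on the y axis, such as Adprhl2 at -2.83 and -0.15.

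The 8 named positive differences were genes that fell strongly with IAA in control cells and less or not detectably in mutated-CTCF cells. Adprhl2, a hydrolase that removes ADP-ribose from proteins, was at 582 and 545 without and 79.2 and 77.7 with IAA in control cells, and at 509 and 546 and 470.2 and 479.9 in mutated-CTCF cells (difference of effects 2.68 ± 0.13 SE, adjusted p = 1.31e-06) (ENSMUSG00000042558.16, GRCm38 chr4:126316047-126321703, minus strand). Its mutated-CTCF groups lay close together (adjusted p = 0.291). R3hcc1 behaved alike, at 532 and 438 and 66.4 and 63.6 in control and 520.4 and 519 and 402 and 382 in mutated-CTCF cells (difference of effects 2.47 ± 0.15 SE, adjusted p = 7.62e-06), although a fall was still called in the latter (-0.41). Cc2d2a, a protein of the ciliary transition zone, was at 187 and 250.3 and 17.0 and 18.9 in control cells and fell by less in mutated-CTCF cells, from 266 and 328 to 147 and 130.2 (difference of effects 2.43 ± 0.26 SE, adjusted p = 0.000537). Dennd6b, a regulator of Rab GTPases, was at 238 and 203 and 11.6 and 21.1 in control cells and at 321 and 295 and 156 and 107 in mutated-CTCF cells (difference of effects 2.47 ± 0.37 SE, adjusted p = 0.00585) (ENSMUSG00000015377.10, GRCm38 chr15:89182213-89196496, minus strand). Dph7, a factor of diphthamide synthesis (2.43), Nr2c1, an orphan nuclear receptor (2.38), Ube2cbp, a ubiquitin ligase (2.55), and Rsad1 (2.61) had differences of like size. With 1 library left out the call was lost in 5 of 8 cases for Rsad1 and 4 of 8 for Ube2cbp (adjusted p up to 0.0833 and 0.0714), and the fall of Dennd6b in mutated-CTCF cells in 2 of 4 (up to 0.0828).

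Since CTCF is a sequence-specific factor, the 250 bases upstream of each gene's start were searched for the core of its known motif (CCA, any 2 bases, AG, any 2 bases, GGC; both strands) in the RefSeq promoter table (GRCm38.p6). Of the 10299 tested genes with an entry, 294 (2.85%) held a match. Of the 116 genes with an entry and a positive difference, 19 did (16.4%). The share was 1 of 60 with a negative difference (1.67%) and 17 of 203 that fell at least 2-fold in control cells (8.37%; 3.94% of all genes changed at least 2-fold there in either direction). Among the genes called in mutated-CTCF cells the share was 32 of 905 for rises (3.54%) and 32 of 846 for falls (3.78%). The shares are descriptions with no test, and a match is not a measured binding site. All 19 genes were called lower in control cells, 10 in wild-type-CTCF cells and 6 in mutated-CTCF cells, with median log2 differences of -1.16, -0.26 and -0.09. Over all 147 genes with a positive difference the numbers were 139, 78 and 55, with medians of -0.97, -0.28 and -0.14. Both sets were chosen for a positive difference from control, which fixes the order of the control and mutated-CTCF values. The 120 bases around the match are shown for 4 of them, in the direction of the gene, with the match in capitals. Those of Adprhl2 (chr4:126321704-126321823, minus strand), Rsad1 (chr11:94549234-94549353, minus strand) and Hsd3b7 (chr7:127800454-127800573, plus strand) read along the gene and that of Dennd6b (chr15:89196589-89196708, minus strand) against it:
Adprhl2: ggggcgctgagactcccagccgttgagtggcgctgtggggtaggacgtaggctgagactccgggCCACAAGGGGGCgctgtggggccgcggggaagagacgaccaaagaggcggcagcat
Dennd6b: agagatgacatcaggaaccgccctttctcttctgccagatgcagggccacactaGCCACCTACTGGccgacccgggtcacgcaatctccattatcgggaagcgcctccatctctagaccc
Rsad1: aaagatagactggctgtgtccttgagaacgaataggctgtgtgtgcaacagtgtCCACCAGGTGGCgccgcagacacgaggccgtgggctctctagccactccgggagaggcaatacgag
Hsd3b7: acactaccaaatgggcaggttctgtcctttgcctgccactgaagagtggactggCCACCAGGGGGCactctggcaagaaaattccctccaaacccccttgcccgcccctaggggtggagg

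Hsd3b7, one of the large falls in mutated-CTCF cells (132 and 98.1 without and 33.9 and 34.2 with IAA), was at 129.8 and 105 and 9.84 and 10.7 in control cells. Its fall was smaller in mutated-CTCF cells by 1.68 ± 0.31 (SE, log2; adjusted p = 0.023). Clustered protocadherins, whose promoter choice depends on CTCF, had 15 genes tested: 0 rose and 2 fell in mutated-CTCF cells (13.3%, near the 16.2% called over all genes; median -0.22). In control cells 0 rose and 11 fell (median -2.43), and in wild-type-CTCF cells 0 rose and 0 fell (median -0.08). The difference of effects between mutated-CTCF and control cells was called for 2 of the 15, and for 1.64% of all genes tested. Pcdhga1 was at 62.8 and 43.6 without and 6.72 and 5.46 with IAA in control cells and at 67.4 and 88.2 and 38.1 and 40.5 in mutated-CTCF cells (mutated minus control 1.96 ± 0.39, adjusted p = 0.0328). The 2 falls, Pcdhga1 and Pcdhgb8, lost their call in 4 of 4 and 3 of 4 cases with 1 library left out (adjusted p up to 0.213 and 0.176), and since gamma protocadherin genes share 3' exons the counts of single members are uncertain.

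The negative differences against control held many glycolysis genes. Over the 34 tested of that list, 11 differed negatively from the control effect and 1 positively. From the wild-type-CTCF effect, 8 differed negatively and 0 positively. Over all genes tested, the shares were 0.581% negative and 1.05% positive against control, and 0.538% and 0.136% against wild type. The list's own median was 0.04 in control and -0.02 in wild-type-CTCF cells. Bnip3 was at 536 and 455 without and 522 and 636 with IAA in control cells and at 762 and 721 and 792 and 774 in wild-type-CTCF cells, so its fall in mutated-CTCF cells differed from both (difference of effects -1.32 ± 0.16 SE, adjusted p = 0.00121 against control; difference of effects -1.17 ± 0.16 SE, adjusted p = 0.00812 against wild type). Ldha differed likewise (-0.46 ± 0.04 against control, -0.47 ± 0.04 against wild type), and so did Pfkl, Pfkp, Pgk1, Pkm and Eno1. Slc16a3, the exporter of lactate, was at 149.6 and 125 without and 333 and 359 with IAA in control cells and at 131 and 123 and 135 and 119.9 in mutated-CTCF cells (difference of effects -1.33 ± 0.19 SE, adjusted p = 0.00352). It rose in control cells and stayed within its replicate spread in mutated-CTCF cells.

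The letters ACGTGC, which hold the ACGTG core of the element bound by hypoxia-inducible factors, were found in the same upstream window of 848 of 10299 genes (8.23%, either strand) and of 14 of the 28 listed glycolysis and hypoxia genes with an entry (50%). The shorter ACGTG was found in 2584 of all genes (25.1%) and 19 of the 28 (67.9%). Of the 14 that fell in mutated-CTCF cells and had an entry, 7 held ACGTGC and 9 held the shorter ACGTG. The match to ACGTGC is shown for 3 of the 7, in capitals within 120 bases. In Ldha and Pgk1 the letters run on the opposite strand, and in Bnip3 2 matches overlap in a palindrome, so that they run on both strands (Bnip3 chr7:138909553-138909672, minus strand, Ldha chr7:46845684-46845803, plus strand, Pgk1 chrX:106186911-106187030, plus strand):
Bnip3: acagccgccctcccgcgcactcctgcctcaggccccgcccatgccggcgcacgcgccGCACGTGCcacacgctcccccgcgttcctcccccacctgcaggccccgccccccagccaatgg
Ldha: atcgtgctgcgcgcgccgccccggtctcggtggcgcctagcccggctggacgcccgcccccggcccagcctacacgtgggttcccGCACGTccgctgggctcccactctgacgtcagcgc
Pgk1: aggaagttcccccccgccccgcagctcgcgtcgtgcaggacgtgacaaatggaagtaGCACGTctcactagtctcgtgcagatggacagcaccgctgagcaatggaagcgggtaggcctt

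These windows lie upstream of the RefSeq gene start. For Ldha that start lies downstream of the GENCODE start, so its stretch falls inside the gene as GENCODE gives it, and the stretch of Rsad1 overlaps the edge of its GENCODE gene. Pgk1, the phosphoglycerate kinase, was at 9211 and 9277 without and 7248 and 7299.8 with IAA in mutated-CTCF cells, against 8171 and 8147 and 7832 and 8079 in control cells (mutated minus control -0.31 ± 0.04, adjusted p = 0.000747). Over all falls in mutated-CTCF cells, 75 of the 846 with an entry held ACGTGC (8.87%), near the 8.23% over all genes. Among genes with a negative difference of effects it was held by 10 of 60 against control (16.7%) and 12 of 57 against wild type (21.1%). For positive differences the numbers were 11 of 116 (9.48%) and 1 of 15 (6.67%). The negative sets include glycolysis genes named above, and these shares were not tested.

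The untreated mutated-CTCF libraries also stood apart in mitochondrially encoded and nuclear-retained RNA, a pattern chosen for description after the values were seen. The 15 mitochondrially encoded transcripts tested made up 2.84% and 3.08% of the total in the untreated mutated-CTCF libraries and 2.48% and 2.45% with IAA. In control cells the shares were 2.07% and 2.19% without and 2.38% and 2.37% with IAA, and in wild-type-CTCF cells 2.27% and 2.39% and then 2.64% and 2.62%. With IAA, 7 of the 15 thus fell and 0 rose in mutated-CTCF cells, while 8 and 9 rose and 0 fell in control and wild-type-CTCF cells. Over all genes tested, 7.92% fell in mutated-CTCF cells, and 12.8% and 11.1% rose in control and wild-type-CTCF cells. mt-Co1, a subunit of cytochrome c oxidase, was at 242132 and 246841 without and 195889 and 192831 with IAA in mutated-CTCF cells and at 173767 and 170367 and 201045 and 203052 in control cells (difference of effects -0.56 ± 0.02 SE, adjusted p = 3.28e-07). Neat1, a long noncoding RNA of nuclear paraspeckles, fell from 2238 and 2272 to 1264 and 1297 and was at 1608 and 1689.6 and 1484 and 1503 in control cells (difference of effects -0.67 ± 0.07 SE, adjusted p = 0.000425), and Malat1 and Meg3 differed in the same direction (-0.87 and -0.61). mt-Co2 split by replicate number in every untreated group (19471 and 38653 in mutated-CTCF, 15416 and 29824 in control and 16351 and 32191 in wild-type-CTCF cells), and not in the treated groups. The untreated mutated-CTCF libraries are among those whose treatment label disagrees with the title, and the part of RNA composition in the glycolysis difference was not tested.

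**Figure D5:**
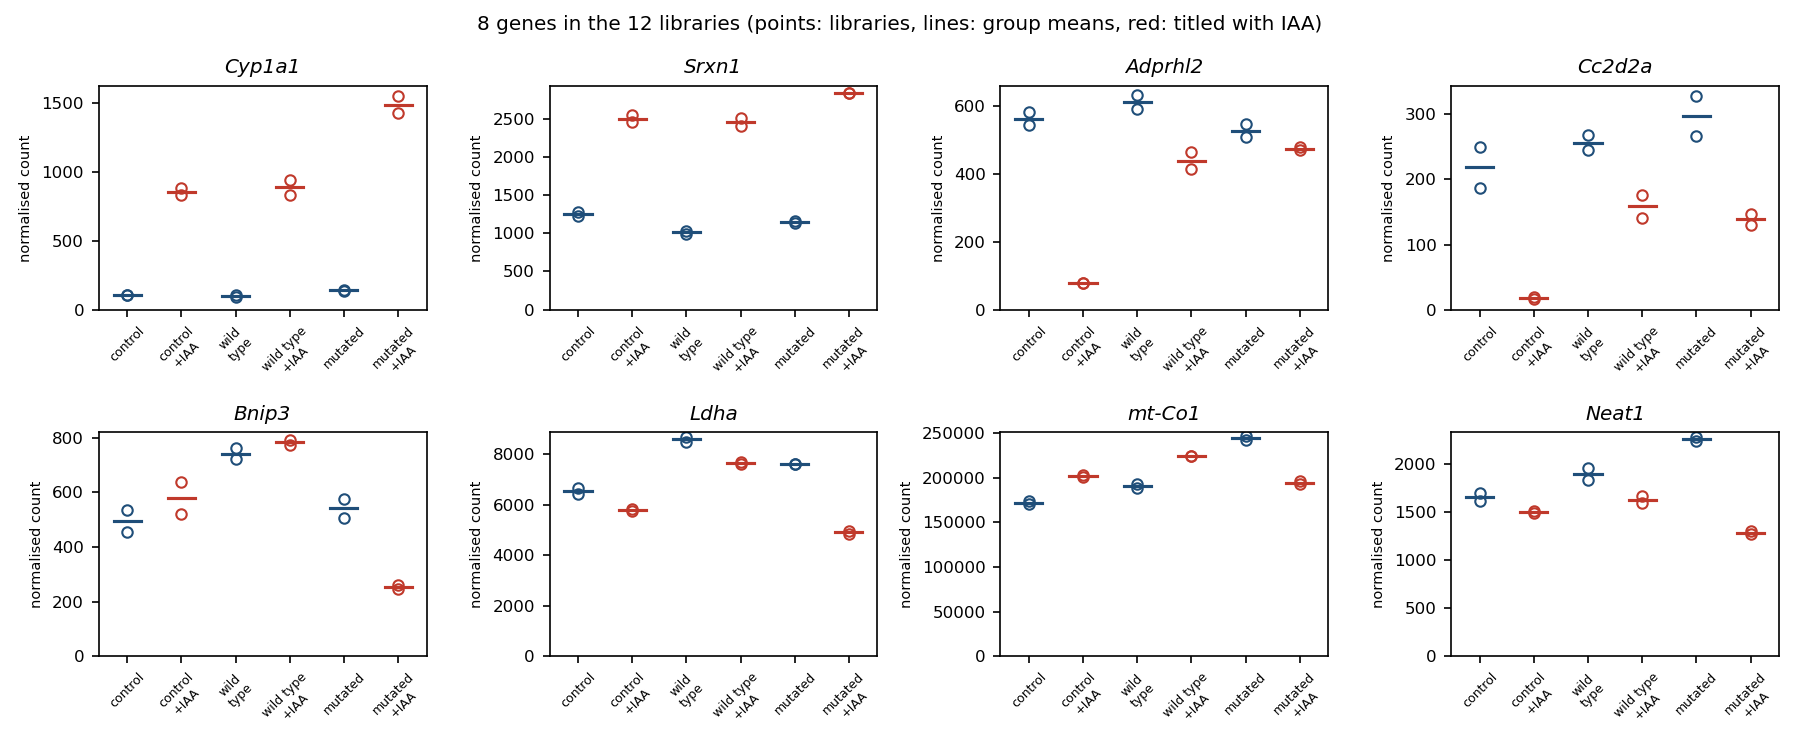
Normalised counts (linear axes from 0) of 8 genes in the 12 libraries, by line and by title with (red) or without (blue) IAA; points are libraries and lines means of 2. Cyp1a1 and Srxn1 rise in all 3 lines, Adprhl2 and Cc2d2a fall furthest in control cells, and Bnip3, Ldha, mt-Co1 and Neat1 fall in mutated-CTCF cells to the lowest level of the 3 treated lines, mt-Co1 and Neat1 from the highest untreated level.

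Other negative differences against control were Trim7, a ubiquitin ligase (-1.53), Ndor1, a flavin reductase (-1.28), Ocel1 (-1.21), Myc, a growth regulator (-1.18), Aoah, a lipase (-1.05), and Ccdc136 (-1.02). Aoah rose in both lines, from 138 and 140.2 to 526 and 537 in control and from 294 and 287 to 566 and 506 in mutated-CTCF cells, where its untreated level was higher. Trim7 rose in control cells (0.59) and fell in mutated-CTCF cells, from 138 and 159 to 80.1 and 74.1 (-0.94). Myc was at 131 and 121 without and 103 and 111 with IAA in mutated-CTCF cells and rose from 81.9 and 72.6 to 134 and 167 in control cells. With 1 of the 8 libraries left out, the call was lost in 8 of 8 cases for Myc and in 7 of 8 for Ndor1 and Ocel1 (adjusted p up to 0.163, 0.171 and 0.154).

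Against wild-type CTCF the effects differed for fewer genes, 94 (0.674%), of which 19 were positive (0.136%) and 75 negative (0.538%) and 2 reached 2-fold (0.0143%). With any 1 of the 8 libraries left out the count fell to between 35 and 59, with 2 to 10 positive, and without the mean trend it was 5, with 0 positive. At an unadjusted p under 0.05 the numbers were 1764 against wild type and 1739 against control. Of the 2262 genes called in mutated-CTCF cells, 1393 were called with the same sign in wild-type-CTCF cells (61.6%, and 46.8% of the 2979 called there). Those 2979 are 21.4% of genes tested, with 11.1% rising and 10.3% falling. The effect differed from both other lines for 47 genes. The wild-type libraries with IAA are also among those with conflicting labels.

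The 2 differences of at least 2-fold were Zfp566, a zinc-finger gene, and Bnip3. Zfp566 was at 153 and 176 and rose to 315 and 401 in wild-type-CTCF cells, and it was at 294 and 383 and 199 and 246 in mutated-CTCF cells (difference of effects -1.71 ± 0.28 SE, adjusted p = 0.0202). Ddx58, the RNA sensor RIG-I, fell in mutated-CTCF cells from 521 and 476 to 250.5 and 219.7 and was at 342 and 382 and 301 and 352 in wild-type-CTCF cells (difference of effects -0.93 ± 0.17 SE, adjusted p = 0.0351). Mir17hg, the host of the miR-17-92 cluster, fell from 894 and 904 to 689 and 713 in mutated-CTCF cells and rose from 569 and 518 to 802 and 660.3 in wild-type-CTCF cells (difference of effects -0.78 ± 0.13 SE, adjusted p = 0.0197). Sox2 fell in mutated-CTCF cells and not at the threshold in wild-type-CTCF cells (7556 and 7658 and 7496 and 7156), and that difference passed (difference of effects -0.32 ± 0.05 SE, adjusted p = 0.0163). For Sox2, and for Ldha and the other glycolysis genes beside Bnip3, the difference from wild type was not followed with libraries left out.

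The named positive differences against wild type were small: Prkaa2, a catalytic subunit of AMP-activated kinase (0.47), Erlin1, a protein of the endoplasmic reticulum (0.44), Galnt2, a glycosyltransferase (0.43), Ctsc, cathepsin C (0.40), and Zmynd8, a chromatin reader (0.32). Prkaa2 rose from 1139.8 and 1203 to 1517 and 1535 in mutated-CTCF cells and was at 1442 and 1514 and 1435 and 1354 in wild-type-CTCF cells. Mfsd10, a membrane transporter, was among the negative ones (-0.77). Of the 10 genes named by the rule in this comparison, Bnip3 alone was called whichever 1 of the 8 libraries was left out. The other 9 lost the call in 5 to 8 of the 8 cases, with an adjusted p of up to 0.0927 for Zfp566, 0.137 for Ddx58, 0.0862 for Mir17hg, 0.164 for Mfsd10, 0.0779 for Prkaa2, 0.165 for Erlin1, 0.146 for Galnt2, 0.151 for Ctsc and 0.164 for Zmynd8.

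Genes that responded to 12 h of IAA in CTCF AID cells of 2 separately normalised tables were then read in mutated-CTCF cells. In the CTCF degradation table, a share of 17.8% of genes tested was called and 4.45% were called at 2-fold. The shares called were 17% and 2.55% in the serum table. Of 169 genes at least 2-fold higher in the CTCF degradation table, 72.8% had a positive difference in mutated-CTCF cells, with a median of 0.52 against 0.86 in control and 0.44 in wild-type-CTCF cells. Of 410 at least 2-fold lower there, 69.0% had a negative difference, with a median of -0.26 against -0.68 and -0.31. For the serum table the 112 genes higher had medians of 0.65, 0.99 and 0.57 in mutated-CTCF, control and wild-type-CTCF cells, and the 183 lower ones -0.43, -1.37 and -0.49. The sets were chosen on libraries that the overexpression table does not hold, and the gaps between lines were not tested as such.

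The remaining lists are given by their counts, to be read against the 16.2% of all genes called (8.31% higher and 7.92% lower). Of 9 primitive endoderm genes tested, 1 rose and 0 fell, the riser being Pdgfra, and their summed level was 6381 and 5583 without and 5675 and 6044 with IAA. Of 9 trophoblast genes 1 rose and 1 fell (sums 2632 and 2473, then 2694 and 2684). Of 9 mesoderm and T-box genes 2 rose and 1 fell (677 and 739, then 1028 and 996). Of 7 neural genes 2 rose and 1 fell (7920 and 8013, then 8299 and 8174), and of 4 fibroblast and feeder genes 1 rose and 1 fell. Gata6 and Foxa2, defining factors of endoderm, were under the minimum level. In the 4 libraries Gata6 was at 5.47, 3.12, 5.2 and 4.81 and Foxa2 at 4.10, 4.68, 2.80 and 1.08. Gata4 and Hnf4a, factors of the same list, did reach the minimum level and were not called. Cytosolic ribosomal protein genes gave 1 higher and 6 lower of 76 in mutated-CTCF cells (median -0.04). The counts were 0 and 35 in control and 0 and 28 in wild-type-CTCF cells, and 1 of the 76 differed from control. Over all genes tested, 12.5% fell in control and 10.3% in wild-type-CTCF cells, and 1.64% differed from control. Of 34 G2/M genes 2 rose and 2 fell, of 27 p53 targets 3 rose and 5 fell, and of 18 interferon genes 2 rose and 3 fell. Of 16 NuRD genes 3 rose and 2 fell, and of 20 DNA methylation genes 4 rose and 1 fell. Of 36 imprinted genes 6 rose and 5 fell, and of 19 CTCF and cohesin genes 5 rose and 1 fell. Of 11 Hox genes 1 rose and 0 fell, of 15 antigen presentation genes 3 rose and 2 fell, and of 18 collagen and laminin genes 1 rose and 1 fell. Among these lists with members tested, the share called was lowest in Hox genes (9.09%) and ribosomal protein genes (9.21%) and highest in the fibroblast (50%) and neural (42.9%) lists, which have 4 and 7 members tested. Of 25 genes of the 2-cell-like state, 3 were listed in the table and 0 reached the minimum level.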

How the data were processed

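RNA sequencing of poly(A) RNA was read from the authors' deposited table of normalised counts, a signal that is never negative, for 12 libraries; 2 further tables (CTCF degradation and serum) served only to choose gene sets. Per the submitters' processing notes, Trim Galore, Bowtie2, STAR, RSEM, DESeq2 and the build mm10 were used, with no roles or versions given. The deposited values are not whole and followed no fixed step (coherence 0.362 to 0.496, where whole reads would be near 1), so reads were not recovered, no count test was run and depth is unknown. Columns were mapped to samples by title and 0 columns were left unmapped.

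Genes with a mean of at least 10 entered 1 model of all 12 libraries and 6 groups, on the log2 scale after adding 1 (limma 3.58.1, R 4.3.3; eBayes with a mean trend), leaving 6 residual degrees of freedom. P-values were Benjamini-Hochberg adjusted over 13938 genes, and a gene was called under 0.05. The contrasts were the IAA effect in each line and the differences mutated minus control and mutated minus wild type. An exact permutation test of 2 libraries against 2 cannot give a two-sided p below 0.333. Named genes were the 12 largest rises and falls that were called, reached a mean of 50 in the higher group and had groups that do not overlap and a symbol that is not provisional; the 6 most abundant called genes that changed at least 2-fold; the 8 (against control) and 5 (against wild type) largest differences in each direction; Ctcf; and members of gene lists. The comparison, the lists and the rule were chosen with earlier results of these data known. Lists were described by counts and medians, with no set test; where a symbol has 2 identifiers the one of higher mean was used.

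Positions are from GENCODE M21 on GRCm38, in which 13930 of 13938 identifiers were found, and promoter sequences from RefSeq on GRCm38.p6 (10299 genes matched by symbol; Python 3.11.15, pandas 2.3.3). The fitting code was tested on simulated data. Other pseudocounts, filters, scalings, fits and libraries left out were tried as alternatives.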

Additional observations from a re-analysis of the deposited data

Results flagged for a closer look

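The effect of IAA differed between mutated-CTCF and control cells for 228 genes and between mutated-CTCF and wild-type-CTCF cells for 94, by the test of the difference itself (limma, adjusted p under 0.05). Against control, the differences in log2 effect of the named genes were 2.68 for Adprhl2, 2.61 for Rsad1, 2.55 for Ube2cbp, 2.47 for both Dennd6b and R3hcc1, 2.43 for both Cc2d2a and Dph7 and 2.38 for Nr2c1. In the other direction they were -1.53 for Trim7, -1.33 for Slc16a3, -1.32 for Bnip3, -1.28 for Ndor1, -1.21 for Ocel1, -1.18 for Myc, -1.05 for Aoah and -1.02 for Ccdc136. Against wild type they were 0.466 for Prkaa2, 0.437 for Erlin1, 0.433 for Galnt2, 0.399 for Ctsc and 0.317 for Zmynd8, and -1.71 for Zfp566, -1.17 for Bnip3, -0.931 for Ddx58, -0.781 for Mir17hg and -0.77 for Mfsd10. The 3 lines share no library in their own effects, but each difference uses the mutated-CTCF libraries, so the 2 sets of differences are not independent. With 2 libraries a group no library could be tested as standing apart from its group.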

How the results depend on the processing

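The counts of genes called, 2262 for the mutated-CTCF effect, 228 for its difference from control and 94 for its difference from wild type, stayed within 1.5 times under pseudocounts of 0.5 and 5, a minimum mean of 100 or none, 2 other scalings and fits of only the groups compared. With 1 library left out, which leaves a group with a single library assumed to vary like the others, they were 1202 to 1456, 148 to 188 and 35 to 59. Without the mean trend they were 1776, 119 and 5, and with a 2-fold limit added 253, 73 and 2; the cause was not tested for the trend, while the limit removes smaller changes by construction. A replicate block gave 2219, 214 and 82; same-numbered libraries did not deviate together (r from -0.063 to 0.1), although mt-Co2 split by number in the untreated groups, so by the correlation over genes the numbers were not taken to pair them. Over single genes and all these settings, 3099 values were the same in direction and call and 529 lost the call. Medians of 24 gene lists moved by more than the replicate spread under at least 1 setting (71 values in all). With 1 library left out, medians of several lists changed sign, among them FGF and ERK, BMP and Nodal, and Wnt. Others were mesoderm and T-box (0.28, lowest -0.01) and antigen presentation (0.14, lowest -0.06). Medians near 0, as for CTCF and cohesin, DNA methylation, fibroblast, and collagen and laminin genes, also changed sign. A fit without the wild-type libraries with IAA, added after the data were seen, gave 2129 and 180. Grouping by the treatment label was not run, since it leaves no mutated-CTCF comparison. Of single genes, Hspa8 changed sign under quantile normalisation, to 0.0378 from -0.06, and was not called there (the cause was not tested). Depth is unknown, so whether genes not called lack reads cannot be said, and a missing call does not show that a gene did not change.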
